A study of Mus musculus with 36 samples.

Results

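The 78 genes described here encode the protein components of the cytosolic ribosome in mouse skeletal muscle stem cells. They were chosen by symbol alone, as the genes of the table named Rpl or Rps with a number and at most 1 letter, together with Rplp0, Rplp1, Rplp2 and Rpsa, and they are 78 of 11337 genes. Of these, 46 belong to the large and 32 to the small subunit, and 77 are annotated as protein-coding. Rps4l, the exception, is annotated as a transcribed processed pseudogene. Every member was above 1 RPKM (reads per kilobase of exon, scaled to library size) in every library, so all 78 entered each test.

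Muscle stem cells, or satellite cells, lie beside the muscle fibre and rest until injury calls on them to divide. Each library came from the hindlimb stem cells of 1 male C57BL6 mouse, aged 3 months (Y) or 18 months (O). In the wheel cohort the mice had a running wheel for 3 weeks that turned freely (+Ex) or was locked (-Ex), giving O(+Ex) with 5 mice, O(-Ex) with 7, Y(+Ex) with 3 and Y(-Ex) with 6, and cells were sorted as CD31-, CD45-, Sca1-, VCAM+ and DAPI-. In the second cohort every mouse carried Pax7_CreERT2, a tamoxifen-inducible recombinase driven by the satellite cell gene Pax7, and the R26R_YFP reporter. Its Ccnd1 (cyclin D1) alleles were Ccnd1_flox/flox in Y(KO) with 5 mice, Ccnd1_+/flox in Y(HET) with 4, and Ccnd1_+/+ in O(WT) with 3 and Y(WT) with 3. All 4 of those groups received tamoxifen, and YFP+, DAPI- cells were sorted 6 weeks later, so the wild types of this cohort also carry the recombinase.

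Ribosomal proteins are assembled with ribosomal RNA in the nucleolus, and the finished subunits carry out all cytosolic protein synthesis. Their messenger RNAs are abundant in most cells, and many begin with a C followed by a run of pyrimidines, the 5′ TOP motif, through which mTORC1 and the RNA-binding protein Larp1 control their translation and stability. Quiescent stem cells are known for low protein synthesis, and ribosome production is raised when they enter the cell cycle.

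The promoters of the 5 members that rose with age also beside the length covariate described further on (Rps15, Rps27l, Rpl38, Rpl24, Rpl35), and of Rpl4, which passed the test in neither wheel-cohort age comparison, are shown so that their start regions can be compared. The stretches are from RefSeq, build GRCm38.p6, on the gene's strand from 90 bases before to 20 bases after the first listed start, and capitals mark matches to the motifs named below.
Rps15, small subunit, chr10:80292341-80292450, plus strand: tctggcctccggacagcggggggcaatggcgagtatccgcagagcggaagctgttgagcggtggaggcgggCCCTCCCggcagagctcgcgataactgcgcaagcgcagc
Rps27l, small subunit, chr9:66945996-66946105, plus strand: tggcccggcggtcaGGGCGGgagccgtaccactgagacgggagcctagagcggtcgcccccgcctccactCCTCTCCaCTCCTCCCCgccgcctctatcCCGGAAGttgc
Rpl38, large subunit, chr11:114668490-114668599, plus strand: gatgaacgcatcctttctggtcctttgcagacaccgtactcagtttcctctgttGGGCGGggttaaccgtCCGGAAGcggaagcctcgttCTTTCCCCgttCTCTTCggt
Rpl24, large subunit, chr16:55966185-55966294, plus strand: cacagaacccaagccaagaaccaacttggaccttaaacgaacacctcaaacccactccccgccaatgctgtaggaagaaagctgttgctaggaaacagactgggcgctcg
Rpl35, large subunit, chr2:39005112-39005221, minus strand: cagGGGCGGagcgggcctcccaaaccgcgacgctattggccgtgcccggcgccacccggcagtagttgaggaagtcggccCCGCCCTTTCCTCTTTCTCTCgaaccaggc
Rpl4, large subunit, chr9:64173297-64173406, plus strand: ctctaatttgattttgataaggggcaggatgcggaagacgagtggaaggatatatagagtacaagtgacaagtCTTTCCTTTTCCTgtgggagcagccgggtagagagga

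In these stretches Rpl38 held an SP1 motif, an ETS motif and pyrimidine runs in that order, and Rpl35 held a pyrimidine run that crossed its listed start. Rpl24 held none of the searched letters in its window. RefSeq promoters of 300 bases (250 before and 50 after the start) were found for 57 of the 78 members, as 68 windows, and motifs were searched on both strands. The ETS motif CCGGAAG was in 36.8% of member windows and 8.86% of all 32851 promoter windows. The YY1 motif AAGATGG was in 16.2% of member windows and 6.34% of all. The SP1 motif GGGCGG was in 60.3% of member windows and 35.7% of all, and the TATA motif TATAAA was in 8.82% of member windows and 13.6% of all. A C followed by at least 5 pyrimidines, read on the gene's strand within 20 bases of the listed start, was in 60.3% of member windows and 29.4% of all. The pyrimidine run can overlap the reverse complement of the SP1 motif, as it does in Rpl35, and listed starts can be off by some bases, so a window without a match shows only that the letters are absent there.

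The members were among the most abundant messages of these cells. The median member averaged 180.5 RPKM over the 36 libraries, against 6.12 RPKM for the median gene of the table, and 20 members stood among the 100 genes with the highest mean. On this per-length scale the highest was Rplp0, the stalk protein that anchors the P1 and P2 proteins, at 1680 RPKM. It was followed by Rpl4 (1419 RPKM), which lines the exit tunnel, Rpl8 (1082 RPKM), Rpl3 (706 RPKM), which lies near the peptidyl transferase centre, and Rpl13 (661 RPKM). The lowest were Rpl35a (35.4 RPKM), Rps15a (27.3 RPKM), Rpl24 (15.3 RPKM), Rpl13a (12.6 RPKM) and the pseudogene Rps4l (11.8 RPKM). Ribosomes hold nearly all of these proteins in equal number, and the RPKM values of their genes spanned more than 100-fold. For 60 members the annotation names at least 1 pseudogene, up to 24 for a single member, and reads shared with such copies could be lost or split by the counting, so levels compared between genes are uncertain. The other stalk genes Rplp1 and Rplp2 averaged 546.5 and 117.0 RPKM.

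The members moved together from mouse to mouse. After removal of the group means, 1 principal component held 76.9% of the members' log2 variance, against 8.20% for all genes, and the median member correlated with the mean of the other members at r = 0.93 (a description over 36 libraries, which share processing and scaling). Rps10, Rpl9 and Rpl30 followed the others most closely (r = 0.98 each), while Rps27l (r = 0.46), Rpl29 (r = 0.35) and Rps4l (r = 0.30) followed them least. The summed member RPKM took 7.30 to 7.99% of the table's sum in O(+Ex), 6.46 to 7.97% in O(-Ex), 6.60 to 6.81% in Y(+Ex) and 5.98 to 7.43% in Y(-Ex). It took 6.72 to 7.78% in Y(KO), 6.77 to 7.56% in Y(HET), 5.66 to 8.65% in O(WT) and 5.34 to 7.45% in Y(WT). The mean log2 level of the members had a within-group SD of 0.11 in the wheel cohort and 0.24 in the Ccnd1 cohort. There single mice stood apart within their groups: 78 of 78 members were above their own 36-library mean in O(WT) replicate 3, 6 in O(WT) replicate 1, 0 in Y(WT) replicate 1, 1 in Y(WT) replicate 2 and 61 in Y(WT) replicate 3.

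**Figure D1:**
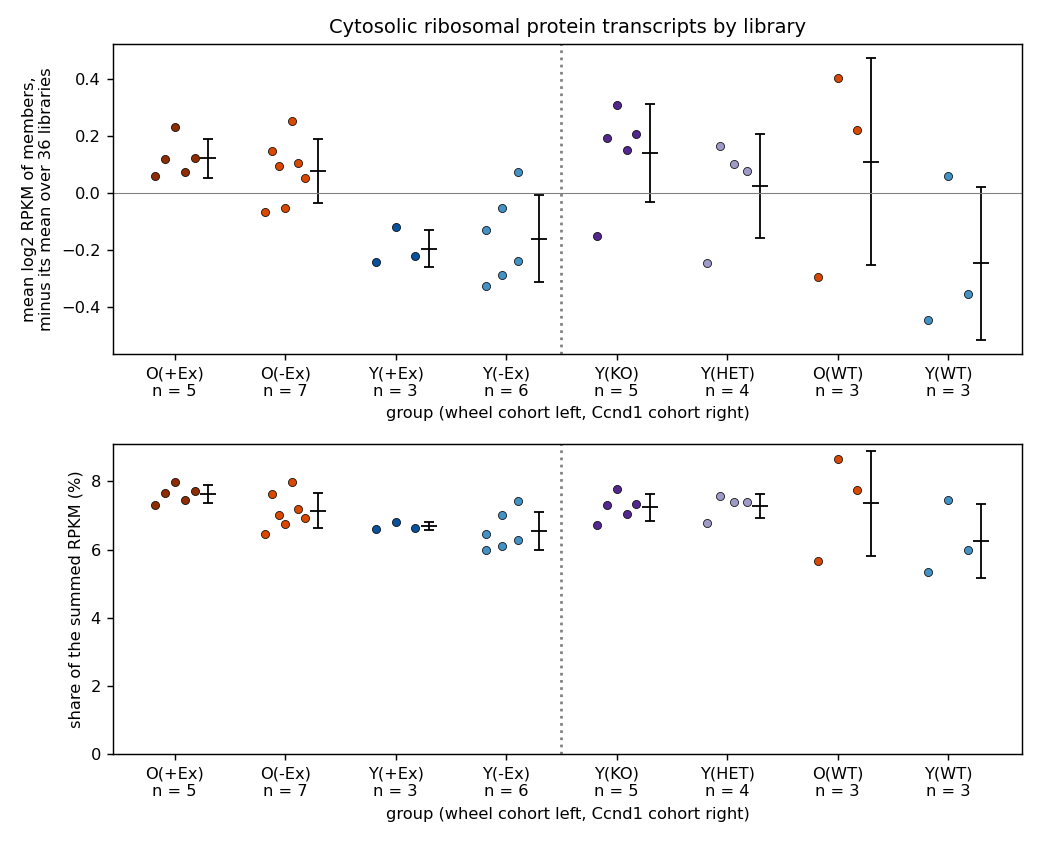
The upper panel plots the mean log2 RPKM of the 78 members in each library, minus its mean over 36 libraries, and the lower panel their share of the summed RPKM in percent, by group (points, libraries; bars, mean ± SD). In the upper panel O(+Ex) lies above all Y(+Ex) libraries, 2 of the 6 Y(-Ex) libraries fall within the range of O(-Ex), and the within-group SD is 0.11 in the wheel and 0.24 in the Ccnd1 cohort.

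Markers and the targeted gene were read first. All 10 satellite cell markers were detected, and their summed level was 2180 to 3631 RPKM over all libraries. Sdc4 made up the largest part of that sum, with 1364 to 2487 RPKM, while Pax7 had 14.2 to 32.5 RPKM. Ccnd1 had 2.07 to 3.40 RPKM in Y(KO), 6.37 to 8.13 RPKM in Y(HET) and 10.6 to 13.3 RPKM in Y(WT), in the order of the labels. Keratinocyte markers summed to 52.7 to 145 RPKM in Y(HET), against 1.48 to 10.6 RPKM in the other 7 groups. The deposited values span 29 of 35 possible independent directions between libraries, so 6 were removed by a step the sources used here do not describe. The removed directions held 28.4% of the O(-Ex) against Y(-Ex) contrast, 0% of O(+Ex) against Y(+Ex), 61.2% of O(WT) against Y(WT), 38.3% of Y(KO) against Y(WT), 35.0% of Y(HET) against Y(WT) and 0% of Y(KO) against Y(HET). Tests on such values count more independent information than they hold, and the p-values are too small by an unknown amount.

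The first question was whether ribosomal protein messages differ between old and young stem cells. With free wheels, 51 of the 78 members rose in O(+Ex) against Y(+Ex) and none fell, where 20.5% of all genes rose and 17.7% fell (limma, adjusted p under 0.05 over 11337 genes). The median member log2 difference was 0.32, against 0.01 for all genes, and 76 of 78 members had a positive value. With locked wheels, 46 members rose in O(-Ex) against Y(-Ex) and none fell, where 20.5% of all genes rose and 17.8% fell. There the median member log2 difference was 0.22, against 0.01 for all genes, and 76 of 78 were again positive. In bulk libraries fewer cells of a type and less RNA per cell cannot be told apart.

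Both age comparisons moved together with a difference tied to transcript length among genes that are no members. A length index, the median log2 deviation of non-member genes with transcripts up to 1615 bases minus that of genes with transcripts from 4158 bases, was 0.08 to 0.28 in O(+Ex), -0.04 to 0.17 in O(-Ex), -0.08 to -0.0007 in Y(+Ex) and -0.24 to -0.04 in Y(-Ex). The members are short, with a median transcript of 705 bases against 2658 for all genes. With the index as a covariate, an alternative chosen after seeing the data, 5 members rose in O(+Ex) against Y(+Ex), where 12.8% of all genes rose, and the median member log2 difference was 0.15. With it 10 members rose in O(-Ex) against Y(-Ex), where 14.0% of all genes rose, and the median was 0.10. Because the index itself follows age, that fit also takes out age differences shared with it, and its part in the result cannot be told apart from age. With the index, the share of members that rose was below that of all genes with free wheels and near it with locked wheels. Rps15, Rps27l, Rpl38, Rpl24 and Rpl35 rose in both comparisons with and without the index.

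Rps15, a protein of the small subunit head, had 280, 308, 299, 289 and 281 RPKM in O(+Ex), against 167, 168 and 187 RPKM in Y(+Ex). It ranged over 232 to 308 RPKM in O(-Ex) with a median of 267, against 142 to 195 RPKM in Y(-Ex) with a median of 175. No old library overlapped a young one. The log2 difference was 0.74 ± 0.09 (SE) with free wheels and 0.63 ± 0.07 with locked wheels, with limma adjusted p of 5.6e-06 and 1.0e-06.

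Rps27l is the paralogue of Rps27 and is known as a target of p53. It had 81.1, 91.5, 92.5, 85.1 and 82.5 RPKM in O(+Ex), against 56.1, 56.5 and 62.2 RPKM in Y(+Ex). It ranged over 77.5 to 86.4 RPKM in O(-Ex) with a median of 83.5, against 52.9 to 63.6 RPKM in Y(-Ex) with a median of 61.1. Old and young libraries were fully separate. Its log2 difference was 0.57 ± 0.07 (SE) with free wheels and 0.46 ± 0.05 with locked wheels (limma adjusted p = 4.4e-06 and 1.4e-06). Rps27 itself averaged 232 ± 27.0 RPKM in O(+Ex) and 187 ± 13.8 RPKM in Y(+Ex) (SD, n = 5 and 3), with a log2 difference of 0.31 ± 0.10 (SE, limma adjusted p = 0.024). With locked wheels Rps27 rose by a log2 difference of 0.29 ± 0.08 (limma adjusted p = 0.0068). Whether the paralogues differed in their change was not tested.

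Rpl38 is the large subunit protein whose loss in mice disturbs the translation of Hox messages. It had 107, 131, 105, 99.3 and 97.8 RPKM in O(+Ex), against 67.4, 64.1 and 67.9 RPKM in Y(+Ex). Its range was 94.1 to 120 RPKM in O(-Ex) with a median of 106, against 53.8 to 78.0 RPKM in Y(-Ex) with a median of 70.7. The groups did not overlap at either wheel condition, and the log2 differences were 0.69 ± 0.12 (SE) with free and 0.64 ± 0.09 with locked wheels. The limma adjusted p-values were 0.00012 and 1.3e-05.

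Rpl24, which forms a bridge between the subunits, had 17.2, 17.4, 17.7, 18.4 and 16.7 RPKM in O(+Ex), against 9.98, 9.97 and 8.99 RPKM in Y(+Ex). It ranged over 15.8 to 20.9 RPKM in O(-Ex) with a median of 18.3, against 9.47 to 15.5 RPKM in Y(-Ex) with a median of 12.8. With free wheels its log2 difference of 0.86 ± 0.11 (SE, limma adjusted p = 9.6e-06) was the largest of all members, and with locked wheels it was 0.51 ± 0.09 (limma adjusted p = 0.00011). Rpl35, at the mouth of the exit tunnel, had 189, 204, 200.4, 202 and 183 RPKM in O(+Ex), against 134, 132 and 147 RPKM in Y(+Ex). With locked wheels Rpl35 ranged over 160 to 203 RPKM in O(-Ex), against 120 to 150 RPKM in Y(-Ex), again without overlap. Its log2 differences were 0.51 ± 0.09 and 0.44 ± 0.07 (SE), with limma adjusted p of 0.00015 and 3.2e-05.

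**Figure D2:**
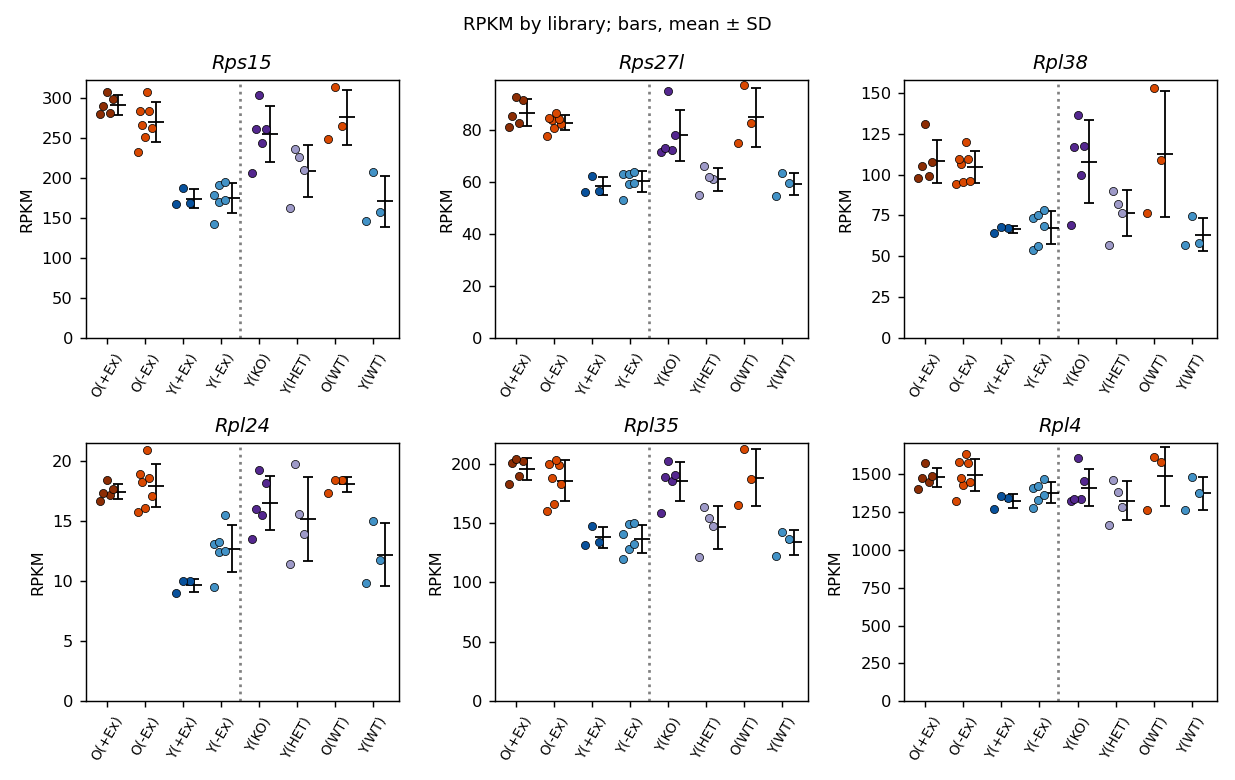
RPKM of 5 members that rose with age in both wheel conditions and of Rpl4, by library and group (points, libraries; bars, mean ± SD; each axis starts at 0; the dotted line parts the wheel cohort from the Ccnd1 cohort). Rps15, Rps27l, Rpl38, Rpl24 and Rpl35 separate O(+Ex) and O(-Ex) from Y(+Ex) and Y(-Ex). The Rpl4 ranges of O(-Ex) and Y(-Ex) overlap, while those of O(+Ex) (1407 to 1577 RPKM) and Y(+Ex) (1272 to 1357 RPKM) do not.

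Among the other members, Rpl5 and Rpl11, which with the 5S RNA bind and restrain Mdm2, both rose. Rpl5 averaged 107 ± 4.85 RPKM in O(+Ex) and 77.7 ± 0.98 RPKM in Y(+Ex) (SD, n = 5 and 3), and 110 ± 11.8 RPKM in O(-Ex) and 82.3 ± 11.7 RPKM in Y(-Ex) (SD, n = 7 and 6). Its log2 differences were 0.46 ± 0.10 and 0.42 ± 0.08 (SE), and those of Rpl11 were 0.40 ± 0.10 and 0.28 ± 0.07. Rpl36 rose by log2 differences of 0.46 ± 0.10 and 0.45 ± 0.07 (SE), and Rps25, known in human cells for its part in initiation at viral internal ribosome entry sites, by 0.42 ± 0.08 and 0.35 ± 0.06. Of the stalk proteins, Rplp2 rose in both comparisons, Rplp1 with free wheels, and Rplp0 in neither. The Rplp1 call was lost in 7 of 8 omissions of 1 library, and the free-wheel call of Rps27 in 3 of 8. Rplp0 averaged 1876 ± 101 RPKM in O(+Ex) and 1549 ± 85.3 RPKM in Y(+Ex) (SD, n = 5 and 3), with a log2 difference of 0.28 ± 0.14 (SE, limma adjusted p = 0.12). Rps27a, made as a fusion with ubiquitin, rose by log2 differences of 0.32 ± 0.09 and 0.20 ± 0.07 (SE).

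Rps6, the substrate of the S6 kinases downstream of mTORC1, rose with locked wheels by a log2 difference of 0.17 ± 0.06 (SE, limma adjusted p = 0.035). With free wheels its value was 0.18 ± 0.08 and did not pass (limma adjusted p = 0.083). Leaving out 1 library at a time ended the locked-wheel call of Rps6 in 8 of 13 cases. Rps4l averaged 14.1 ± 3.95 RPKM in O(-Ex) and 8.11 ± 1.72 RPKM in Y(-Ex) (SD, n = 7 and 6), a log2 difference of 0.78 ± 0.16 (SE, limma adjusted p = 0.00063). With free wheels the Rps4l value was 0.21 and did not pass (limma adjusted p = 0.45). With the length index it was 0.53 with locked and -0.12 with free wheels, and neither passed (limma adjusted p = 0.068 and 0.79). The gene Rps4l resembles by name, Rps4x, averaged 571 ± 54.4 RPKM in O(-Ex) and 566 ± 105 RPKM in Y(-Ex). Its log2 difference of 0.02 ± 0.09 did not pass (limma adjusted p = 0.85).

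At the other end, 24 members passed in neither comparison. They included Rpl3, Rpl4, Rpl8, Rplp0, Rpsa and Rpl13a. Rpl3 averaged 715 ± 38.1 RPKM in O(+Ex) and 721 ± 41.9 RPKM in Y(+Ex) (SD, n = 5 and 3), with a log2 difference of -0.01 ± 0.10 (SE, limma adjusted p = 0.94). Rpl13a, known from human myeloid cells for a role in silencing inflammatory messages, had a log2 difference of -0.14 ± 0.09 with free and -0.04 ± 0.07 with locked wheels (SE, limma adjusted p = 0.25 and 0.72). Rpl4 had log2 differences of 0.16 ± 0.07 and 0.12 ± 0.05 (SE, limma adjusted p = 0.083 and 0.097). Rpsa, also described as a laminin receptor, had log2 differences of 0.23 ± 0.13 and 0.13 ± 0.10 (SE, limma adjusted p = 0.15 and 0.29).

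The free-wheel and locked-wheel age comparisons share no mice, although their values were adjusted together and their spread was estimated in 1 fit. They had 43 called members in common, which is 84.3% of the free-wheel and 93.5% of the locked-wheel calls. The share of all genes called in both was not counted. Over the 78 members the log2 differences correlated at r = 0.80 and rho = 0.86 (a description across genes), and 74 members had the larger value with free wheels. Every O(+Ex) library exceeded every Y(+Ex) library for 67 members, where 21.4% of all genes did so, and every O(-Ex) library exceeded every Y(-Ex) library for 12 members, where 6.96% of all genes did. Leaving out each library in turn left 36 to 50 members called with free wheels and 36 to 64 with locked wheels. Of all 11337 genes, 1743 to 2237 rose in those fits with free and 2082 to 2380 with locked wheels.

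**Figure D3:**
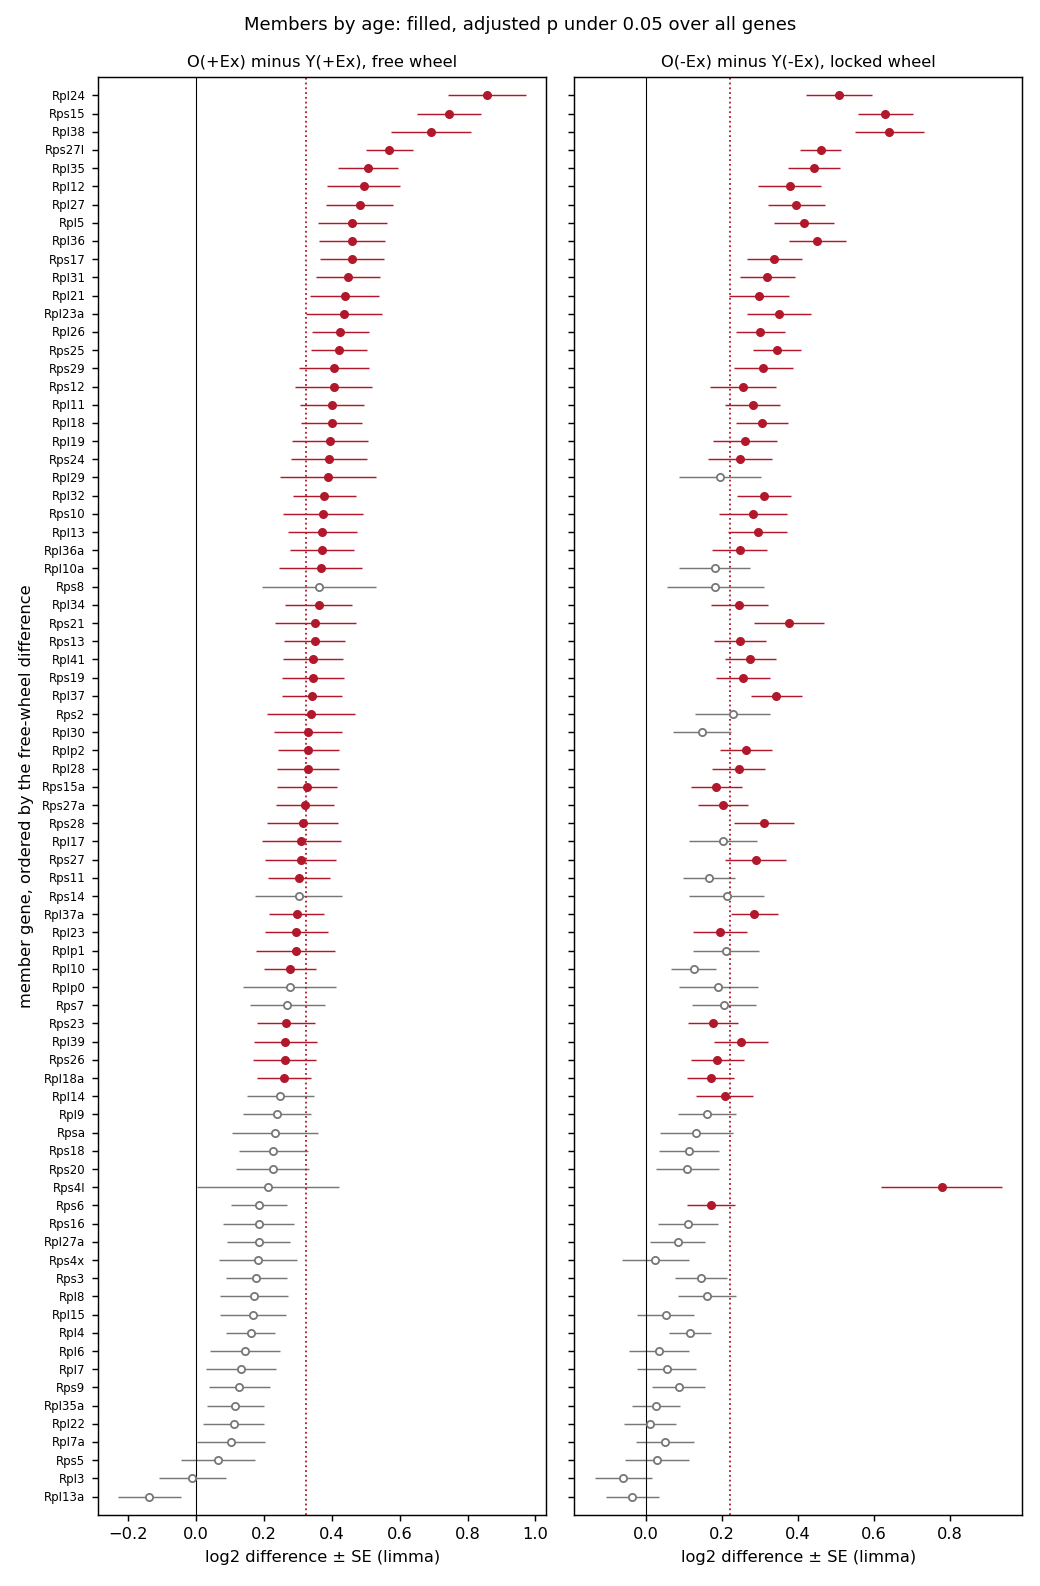
The log2 difference ± SE of each of the 78 members, O(+Ex) minus Y(+Ex) on the left and O(-Ex) minus Y(-Ex) on the right, ordered by the left panel (filled red, adjusted p under 0.05; dotted line, member median of 0.32 and 0.22). Rpl24, Rps15, Rpl38 and Rps27l lead on the left, and Rpl3 and Rpl13a lie below 0 in both panels.

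Calls were also counted by protein size. Of the 26 members with the shortest proteins, 23 rose with free and 21 with locked wheels, and of the 25 of middle size, 21 and 18 rose. Of the 26 with the longest proteins, 7 rose with free and 6 with locked wheels. Of all genes, 20.5% rose in each comparison, and the share among other genes of like length was not counted. Across 77 members, protein length correlated with the log2 difference at r = -0.42 with free and r = -0.47 with locked wheels, a description across genes of shared libraries. By subunit, 32 of 46 large and 19 of 32 small subunit members rose with free wheels, and 27 of 46 and 19 of 32 with locked wheels.

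**Figure D4:**
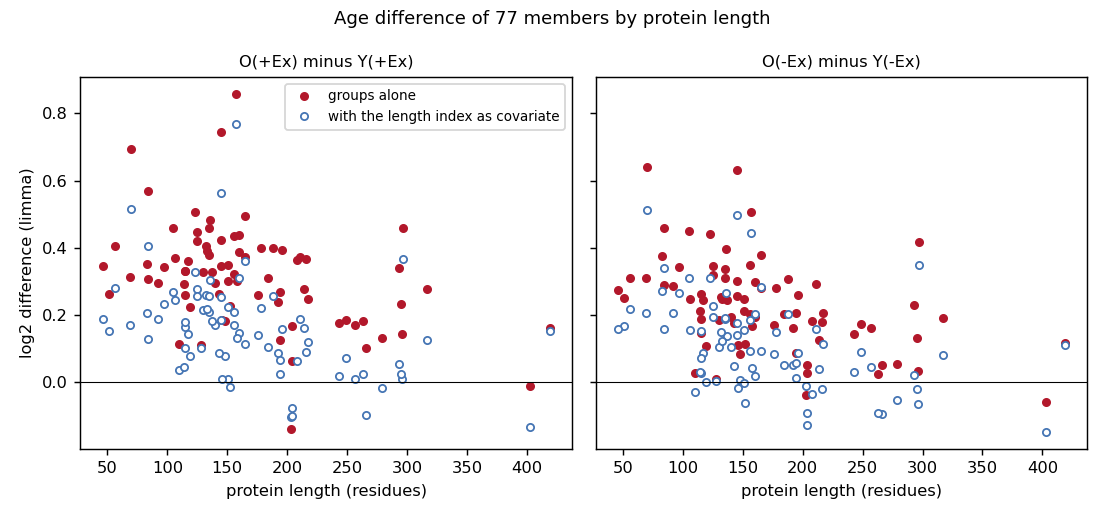
The age log2 difference of 77 members against protein length in residues, O(+Ex) minus Y(+Ex) on the left and O(-Ex) minus Y(-Ex) on the right (filled, groups alone; open, with the length index as a covariate). Longer proteins tend to have the lower values, and with the covariate the member medians are 0.15 and 0.10, against 0.32 and 0.22 without it.

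The same comparison in the Ccnd1 cohort, O(WT) against Y(WT), had 3 mice a side. The removed directions held 92.0% of Y(WT) minus Y(-Ex) and 96.0% of O(WT) minus O(-Ex). Most of the difference between these groups of like age was thus taken out. The comparison therefore cannot be read as an independent repeat of O(-Ex) against Y(-Ex). In O(WT) against Y(WT) 6 members rose and none fell, where 8.03% of all genes rose and 7.76% fell. The share of members was near that of all genes. All 78 members had a positive value, but members moved together from mouse to mouse, so these are not 78 independent observations. The mean log2 deviation of the members overlapped between the groups, at -0.30 to 0.41 in O(WT) and -0.45 to 0.06 in Y(WT). The median member log2 difference was 0.37, against -0.008 for all genes. That median was 0.56 without O(WT) replicate 1 and 0.21 without O(WT) replicate 3. The 6 were Rpl5, Rps27l, Rps15, Rpl35, Rpl24 and Rpl27. Rpl5 had 98.8, 113 and 126 RPKM in O(WT), against 72.6, 68.0 and 89.5 RPKM in Y(WT), a log2 difference of 0.56 ± 0.13 (SE, limma adjusted p = 0.012). Rps27l had 82.5, 74.7 and 97.0 RPKM in O(WT), against 54.6, 63.2 and 59.3 RPKM in Y(WT), a log2 difference of 0.52 ± 0.13 (SE, limma adjusted p = 0.014). Both were higher in every old than in every young library. Without O(WT) replicate 1, the library with low members, 18 members rose, where 623 of all 11337 genes did. The count was 2 without Y(WT) replicate 1, 1 without Y(WT) replicate 2, 3 without O(WT) replicate 2 and 0 without O(WT) replicate 3. With the length index as a covariate it was 0. Of all genes, 699, 579, 685, 481 and 439 rose in these fits, in the same order. The length index was 0.05 to 0.07 in O(WT) and -0.18 to -0.07 in Y(WT). Summed fibro-adipogenic markers were 369 to 501 RPKM in O(WT), against 245 to 260 RPKM in Y(WT), and endothelial markers 126 to 130 RPKM in O(WT), against 82.0 to 116 RPKM in Y(WT). The 6 Schwann cell markers had a median sum of 191 RPKM in O(WT), against 236 RPKM in Y(WT). Their median log2 difference was 0.30, opposite in direction to the sum, and none of the 6 passed. None of these 3 sums overlapped between the groups, and their part in the result was not tested.

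Wheel running was tested within each age. No member passed in O(+Ex) against O(-Ex), where 4.09% of all genes rose and 3.30% fell, and 1 of 78 members had an unadjusted p under 0.05 in limma, where 23.3% of all genes did. No member passed in Y(+Ex) against Y(-Ex), where 0.406% of all genes rose and 0.714% fell, and 1 member had an unadjusted p under 0.05, where 15.8% of all genes did. The median member log2 differences were 0.05 in old and -0.04 in young mice, and neither direction held under every alternative. With the length index as a covariate the old median was -0.04, with 12 of 78 members positive against 62 without it. With scaling to the sum of the other genes the young median was 0.03, with 59 members positive against 18. Leaving out 1 library gave medians of 0.02 to 0.08 in old and -0.08 to 0.005 in young mice, the highest young value being that without Y(-Ex) replicate 4. In old mice the lowest p belonged to Rpl22, with a log2 difference of 0.19 ± 0.07 (SE, limma adjusted p = 0.11). When libraries were scaled to the sum of the other genes, Rpl22 and Rpl15 passed, with log2 differences of 0.25 and 0.22 (limma adjusted p = 0.042 and 0.041), where 7.72% of all genes rose under that scaling. In young mice the lowest p belonged to Rpl24, which had 9.98, 9.97 and 8.99 RPKM in Y(+Ex), against 9.47 to 15.5 RPKM in Y(-Ex), so the groups overlapped. Its log2 difference was -0.38 ± 0.11 (SE, limma adjusted p = 0.092), and -0.47 without Y(-Ex) replicate 2 (limma adjusted p = 0.022). The difference between the wheel effects of old and young mice passed for no member, where 0.00882% of all genes passed as higher and 2 of 78 members had an unadjusted p under 0.05 in limma, where 8.47% of all genes did. The lowest p-values belonged to Rpl24, with a log2 value of 0.35 ± 0.14 (SE) for old minus young, Rps4l with -0.57 ± 0.26 and Rpl10 with 0.15 ± 0.10 (limma adjusted p = 0.55, 0.57 and 0.71).

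Loss of Ccnd1 was compared last. Against Y(WT), 4 members rose in Y(KO) and none fell, where 5.05% of all genes rose and 1.94% fell, which is near the background. The median member log2 difference was 0.38, against 0.02 for all genes, and 39 of 78 members had an unadjusted p under 0.05 in limma, where 25.7% of all genes did. Rpl35 had 185, 189, 190, 159 and 203 RPKM in Y(KO), against 122, 137 and 142 RPKM in Y(WT), without overlap. Its log2 difference was 0.47 ± 0.12 (SE, limma adjusted p = 0.033). Rps15 had 261, 243, 261, 206 and 304 RPKM in Y(KO), against 158, 147 and 207 RPKM in Y(WT), where the lowest knockout library overlapped the highest wild type. Its log2 difference was 0.58 ± 0.16 (SE, limma adjusted p = 0.039). Rpl5 rose by 0.42 ± 0.12 and Rps27l by 0.39 ± 0.11 on the log2 scale (SE, limma adjusted p = 0.044 and 0.048).

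Leaving out a library moved the Y(KO) count over 0 to 7 members, and that of all 11337 genes over 75 to 646. The member count was 7 without Y(KO) replicate 4, in which only 8 of 78 members were above their own mean. It was 0 without any one of Y(KO) replicates 1, 3 and 5 and Y(WT) replicates 1, 2 and 3. It was 30 in the fit over all 36 libraries, where 6.11% of all genes rose, and 0 with the length index as a covariate. The length index was -0.09 to 0.14 in Y(KO) and -0.18 to -0.07 in Y(WT), and protein length correlated with the members' log2 differences at r = -0.78. Summed endothelial markers were 118 to 142 RPKM in Y(KO) and 82.0 to 116 RPKM in Y(WT), and summed fibro-adipogenic markers 270.4 to 319 RPKM in Y(KO) and 245 to 260 RPKM in Y(WT). Neither sum overlapped between the groups, and their part in these values was not tested.

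In Y(HET) against Y(WT) no member passed, where 1.98% of all genes rose and 3.40% fell, and 4 of 78 had an unadjusted p under 0.05 in limma, where 23.1% of all genes did. The median member log2 difference was 0.26, against -0.06 for all genes, and 74 of 78 members were positive. That median was 0.17 without Y(WT) replicate 2 and 0.42 without Y(WT) replicate 3. The lowest p belonged to Rpl29, a protein that mice can live without. It had 194, 251, 304 and 372 RPKM in Y(HET), against 138, 131 and 193 RPKM in Y(WT), so the lowest heterozygous library was just above the highest wild type. The log2 difference was 0.84 ± 0.27 (SE, limma adjusted p = 0.083, and 0.020 in the fit over all 36 libraries). Rpl23a and Rps12 came next, with log2 differences of 0.41 ± 0.16 and 0.50 ± 0.21 (SE, limma adjusted p = 0.14 and 0.18). The keratinocyte markers given above were high in the same Y(HET) group. Summed endothelial markers were 122 to 135 RPKM and fibro-adipogenic markers 191 to 243 RPKM in Y(HET), neither overlapping the Y(WT) sums given above, and the part of these markers in its values was not tested. In Y(KO) against Y(HET) no member passed, where 5.15% of all genes rose and 0.891% fell, and 4 members had an unadjusted p under 0.05 in limma, where 22.7% of all genes did. The median member log2 difference was 0.12, against 0.08 for all genes, with 68 of 78 members positive, but 41 with scaling to the sum of the other genes. Without Y(HET) replicate 3 the median was 0.01, and without Y(KO) replicate 5 it was 0.08. Rps27l came nearest. It had 78.0, 71.3, 72.8, 72.2 and 94.9 RPKM in Y(KO), against 61.8, 60.9, 54.9 and 65.9 RPKM in Y(HET), without overlap. Its log2 difference was 0.35 ± 0.10 (SE, limma adjusted p = 0.058). Rpl35 and Rpl38 followed, with log2 differences of 0.34 ± 0.11 and 0.48 ± 0.22 (SE, limma adjusted p = 0.077 and 0.20). Y(WT) is the control of both Ccnd1 comparisons and of the O(WT) age comparison, so these are not independent.

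**Figure D5:**
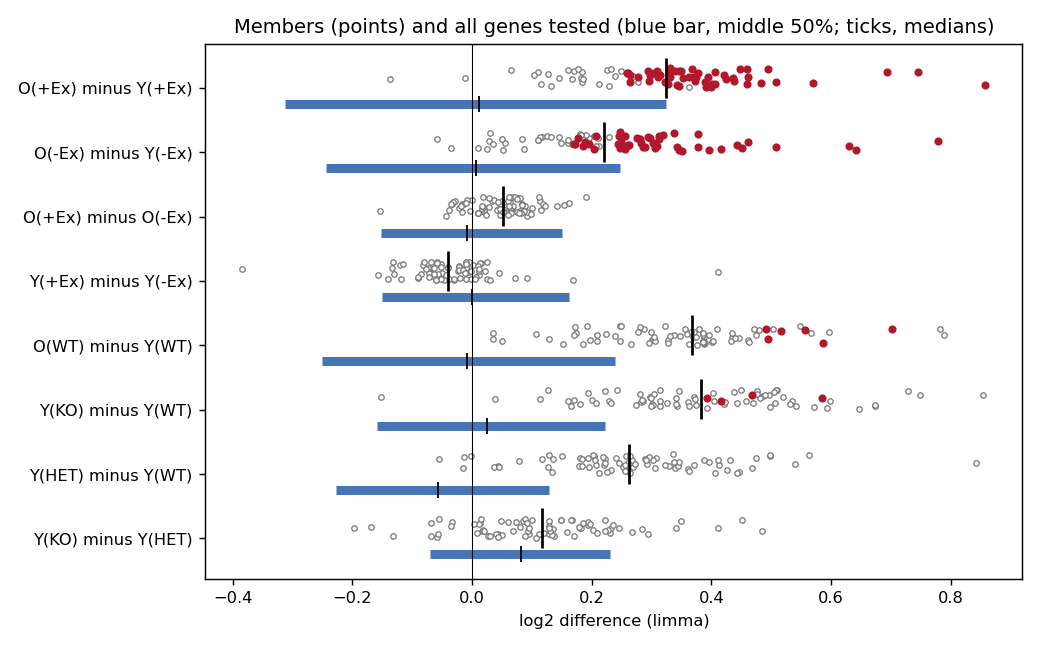
Log2 differences of the 78 members (points; filled red, adjusted p under 0.05; long tick, median) in 8 comparisons, above the middle 50% and the median of all 11337 genes (blue bar and short tick). Member medians lie at 0.32, 0.22 and 0.37 in the 3 age comparisons and at 0.05 and -0.04 in the 2 wheel comparisons.

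In the authors' deposited table of correlations with Ccnd1, 72 of 78 members had a negative coefficient, with a median of -0.24, against a median of 0.008 and 49.3% negative for all genes. In the authors' deposited table the lowest member was Rps28 (-0.51) and the highest Rpl3 (0.29).

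Genes that make ribosomes were counted from fixed lists in the same fits. Of 36 ribosome biogenesis and RNA polymerase I genes, 31 rose and none fell in each wheel-cohort age comparison, where 20.5% of all genes rose. Their medians were 0.67 (free) and 0.55 (locked) on the log2 scale. Nhp2, of the H/ACA particles that guide pseudouridylation, averaged 93.9 ± 10.6 RPKM in O(+Ex) and 42.4 ± 1.57 RPKM in Y(+Ex) (SD, n = 5 and 3), a log2 difference of 1.14 (limma adjusted p = 5.8e-07). Nop16, a nucleolar assembly factor, averaged 89.1 ± 9.16 RPKM in O(+Ex) and 45.2 ± 1.83 RPKM in Y(+Ex), a log2 difference of 0.97 (limma adjusted p = 3.4e-07). In the same list 29 genes rose in O(WT) against Y(WT), 17 in Y(KO) against Y(WT), 27 in Y(KO) against Y(HET) and 0 in Y(HET) against Y(WT). Of all genes, 8.03, 5.05, 5.15 and 1.98% rose, in the same order. Of 77 mitochondrial ribosomal protein genes, which build a separate ribosome, 45 rose with age with free and 39 with locked wheels, and none fell. The share of all genes that rose was 20.5% in each.

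Of 15 other genes with 5′ TOP messages, 5 rose and 2 fell in each wheel-cohort age comparison. Of all genes, 20.5% rose in each, and 17.7% fell with free and 17.8% with locked wheels. Nap1l1, a histone chaperone, rose by log2 differences of 0.46 with free and 0.36 with locked wheels, and Eef1d, an elongation factor subunit, by 0.28 and 0.29. Eef2, the translocation factor, averaged 457 ± 24.7 RPKM in O(+Ex) and 853 ± 67.9 RPKM in Y(+Ex) (SD, n = 5 and 3), and fell by 0.90 on the log2 scale (limma adjusted p = 0.00021). Eif4b, a helper of the initiation helicase, fell by 0.37 with free wheels on the log2 scale (limma adjusted p = 0.012). Of 5 further ribosomal components outside the symbol rule, 4 rose with free and 3 with locked wheels, and none fell, beside the same shares of all genes. Rpl22l1, the paralogue of Rpl22, rose with free wheels by a log2 difference of 0.34.

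Of 22 regulators of these genes, 4 rose and 7 fell with free wheels, and 3 rose and 4 fell with locked wheels. Of all genes, 20.5% rose in each comparison, 17.7% fell with free wheels and 17.8% fell with locked wheels. The share of the list that rose was near the background or below it. The share that fell was above the background with free wheels and near it with locked wheels. Rps6kb1, an S6 kinase, rose by log2 differences of 0.38 and 0.24, and Tsc2, an inhibitor of mTORC1, fell by 0.65 and by 0.46 on the log2 scale (limma adjusted p = 0.00021 and 0.00039). Mdm2, the p53 inhibitor bound by Rpl5 and Rpl11, fell by 0.34 on the log2 scale with locked wheels (limma adjusted p = 0.0016).

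Markers of other cell types and of the stem cells themselves also moved with age in these libraries. The 7 fibro-adipogenic markers summed to 343 to 409 RPKM in O(+Ex) and 365 to 428 RPKM in O(-Ex), against 218 to 258 RPKM in Y(+Ex) and 231 to 288 RPKM in Y(-Ex). The 7 endothelial markers summed to 150 to 207 RPKM in O(+Ex) and 99.7 to 157 RPKM in O(-Ex), against 90.1 to 109 RPKM in Y(+Ex) and 84.0 to 128 RPKM in Y(-Ex). The 9 detected of 11 myofibre markers summed to 50.8 to 151 RPKM in O(+Ex) and 54.7 to 190 RPKM in O(-Ex), against 219 to 414 RPKM in Y(+Ex) and 133 to 690 RPKM in Y(-Ex). Of the 10 satellite cell markers 5 fell with age in each wheel condition, Itga7 and Pax7 among them. Of all genes, 17.7% fell with free and 17.8% with locked wheels. In O(-Ex), 1 of the 7 fibro-adipogenic markers was below 1 RPKM in every library. The part of these shifts in the members' values was not tested.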

How the data were processed

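The series holds 36 polyA RNA libraries, 1 per mouse. Per the labels' protocols, 10 ng RNA was reverse transcribed with oligo(dT) priming, sheared and amplified over 13 to 15 PCR cycles, then read as 101 bp pairs. Per the submitters' processing notes, Trim Galore, STAR, featureCounts (Subread) and mm10 were used. No version or strand setting is given in the sources used here, which leaves overlapping and antisense genes uncertain. The authors deposited RPKM for 11337 genes, which show a removed set of directions, and a score per gene, the authors' correlation with Ccnd1. Library depth is unknown here, so no count test was run.

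The members and lists were chosen with earlier results of these data known. Log2 RPKM without a pseudocount were fitted with limma 3.58.1 (R 4.3.3), 1 mean per group within each cohort (21 and 15 libraries), eBayes with trend and robust settings, and Benjamini-Hochberg adjustment over all genes at 0.05. The script was tested on simulated data. Named were up to 6 called members a direction and comparison by adjusted p (3 by p where none passed), members of stated role, the 5 highest and 5 lowest by level and the 3 most and 3 least like the others. List genes named were up to 2 a direction by p, and others were chosen after their values were seen. An item of these lists is not reported here. Alternatives were median-of-ratios and other-gene scaling, a pseudocount of 1, a filter at 1 RPKM, plain eBayes, other sample sets, a replicate block, omission of each library and a length covariate. Gene positions and lengths came from the GENCODE annotation and promoters from RefSeq GRCm38.p6.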

Additional observations from a re-analysis of the deposited data

Results flagged for a closer look

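The gap of 1 library to its nearest neighbour was compared with its group's range in 185 combinations of a measure (each named member, the member share and the member mean) and a group of 4 to 7 mice, where chance flags about 1 in 20. It stood out in 9, which is near that rate. Rplp1 had 698 RPKM and Rplp2 138 RPKM in O(+Ex) replicate 2, where the other O(+Ex) libraries had 557 to 587 and 115 to 121 RPKM. In Y(KO) replicate 4, Rpl36 had 403 RPKM (others 588 to 649), Rpl8 942 RPKM (others 1156 to 1221) and Rps27 155 RPKM (others 269 to 292). Rps27l had 94.9 RPKM in Y(KO) replicate 5 (others 71.3 to 78.0). In Y(HET) replicate 3, Rplp2 had 94.0 RPKM (others 123 to 124), Rps15a 23.9 RPKM (others 29.8 to 30.2) and Rps27 175 RPKM (others 231 to 240). Y(KO) replicate 4 and Y(HET) replicate 3 had the lowest member mean of their groups, so their flagged values are not independent of each other.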

How the results depend on the processing

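No result changed sign past the threshold in the alternatives run, and the medians of the members stayed within 1 SD of the reported value except under the length index. The fit over all 36 libraries, which shares 1 spread over both cohorts, called 26 members in O(-Ex) against Y(-Ex), 31 in O(+Ex) against Y(+Ex), 16 in O(WT) against Y(WT), 30 in Y(KO) against Y(WT), 1 in Y(HET) against Y(WT) and 3 in Y(KO) against Y(HET). Of all 11337 genes, that fit called 2382, 2362, 1015, 693, 225 and 776 as higher, in the same order. For Y(HET) against Y(WT) and Y(KO) against Y(HET) these were 1.98 and 6.84% of all genes. With the length index as a covariate the member counts were 10, 5, 0 and 0 for the first 4 of these comparisons. Of all genes, 14.0, 12.8, 3.87 and 0.926% rose there, and the member medians of the first pair were 0.10 and 0.15. Scaling to the other genes gave 2 members in O(+Ex) against O(-Ex), where 7.72% of all genes rose. It gave 2 in Y(KO) against Y(WT), where 2.16% rose. That scaling gave a log2 difference of 0.21 in the summed level of O(+Ex) against Y(+Ex), against 0.27. For Y(KO) against Y(WT), median-of-ratios scaling gave 2, plain eBayes 2, and the 2 groups alone 1, and the 2 groups alone gave 3 for O(WT) against Y(WT). Of all 11337 genes, these fits called 426, 485, 284 and 690 as higher, in the same order.

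The main fits did not pair same-numbered mice. After removal of group means, 4 of 5 same-numbered pairs correlated above 0.1 in O(+Ex) against O(-Ex), with a highest r of 0.30. In each other comparison at most 1 pair did. A structure shared by replicate number is therefore not excluded in O(+Ex) against O(-Ex). With the replicate block the count was 0 in Y(KO) against Y(WT), 1 in Y(HET) against Y(WT) and 3 in O(WT) against Y(WT). Of all 11337 genes, that fit called 0, 83 and 705 as higher, in the same order. Omitting single libraries gave 0 to 1 members lower in Y(+Ex) against Y(-Ex), 0 to 7 higher in Y(KO) against Y(WT) and 0 to 18 higher in O(WT) against Y(WT). Of all 11337 genes, 4 to 134, 75 to 646 and 481 to 699 were called, in the same order and direction. Over all 78 members and all comparisons, a call was lost in 159 and gained in 52 cases with 1 library omitted, and lost in 196 and gained in 55 cases under the other alternatives. The cause of these shifts was not tested. Depth cannot be weighed, since the table holds no counts, and O(WT) and Y(WT) have 3 mice each.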
